A study of Sus scrofa with 9 samples.

Results

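The genes described here make and mend DNA. They are 53 of the 12217 genes that a pig expression array measured with probe sets carrying a single gene symbol. They were taken by symbol: the families MCM, ORC, GINS, POLA, POLD, POLE, PRIM, RFC, RPA, RAD5, FANC, XRCC, MSH, BRCA, RRM, LIG, CCNE and CHEK, with EXO1, CDC6 and CDT1. A gene with more than 1 probe set, which among the members means GINS4 and RAD54B, was read from the probe set that was brightest on average. By role, 9 members belong to origin licensing and the replicative helicase, 13 to the polymerases, clamp loader, single-strand binding protein and DNA ligase I, 2 to nucleotide supply and 3 to cyclin E and the checkpoint. A further 2 belong to the mismatch repair family with EXO1, 17 to recombination and the Fanconi pathway and 5 to end joining and base excision, and 2 were taken in by their symbols alone.

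Total RNA of 9 pig samples was measured on Affymetrix PorGene 1.0 ST arrays, 1 array per sample, in 3 groups of 3. Spheroids grown in vitro from esophageal submucosal glands (ESMG), the mucus-secreting glands beneath the esophageal lining, came from pigs 1, 2 and 3. They were kept in growth factor reduced Matrigel under Advanced DMEM/F12 with B27, N2, 10 mM HEPES and 50 ng/ml recombinant human EGF, and their RNA was isolated with a micro-scale kit. ESMG tissue and squamous tissue, the stratified lining above the glands, both came from pigs 37, 39 and 40, whose source is labelled as control pig esophagus, and their RNA was isolated with a kit for tissue. How pigs 1, 2 and 3 relate to pigs 37, 39 and 40, and the age, sex and breed of the animals, are not stated in the labels. Culture, RNA kit and animal therefore cannot be told apart in any comparison of spheroids with tissue, while ESMG and squamous tissue share kit and animals.

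Before a cell can copy its DNA, the origin recognition complex, CDC6 and CDT1 load the MCM helicase onto origins in G1. Cyclin E with CDK2 and the joining of CDC45 and GINS then start the helicase, DNA polymerase alpha with primase lays primers, polymerases delta and epsilon extend them, and DNA ligase I seals the pieces. Many of these genes are transcribed by E2F factors as cells enter S phase, so that their RNA is low in resting cells and high in dividing ones. Recombination, the Fanconi pathway, end joining and base excision mend breaks, crosslinks and damaged bases, in part at the replication fork and in part in cells that do not divide.

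Levels are log2 RMA values, so that a difference of 1 is a 2-fold difference, and levels of different probe sets are not set against each other. Array medians lay between 6.84 and 6.9 in spheroids and between 6.96 and 7.04 in the tissues. Differences were fitted with limma over all 12217 genes with Benjamini-Hochberg adjustment. In what follows a gene rose or fell where its adjusted p was under 0.05, and was called where it also differed by at least 2-fold. With 3 arrays per group, the number of arrays limits the precision of each value. The median SD of the members was 0.21 in spheroids, 0.19 in ESMG and 0.20 in squamous tissue, beside 0.17, 0.19 and 0.19 over all genes. FANCB, MSH4 and RAD51AP2 averaged under 5.65, the highest lower quartile of any array, in all 3 groups, and FANCL did so in squamous tissue, so that their values sit in the dim range. Of the members called below, CHEK1, XRCC2 and CDC6 lay not far above that mark in the tissues. They averaged 5.82, 5.80 and 6.01 in ESMG and 5.71, 5.86 and 6.03 in squamous tissue.

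The labelled tissues were set against marker genes. All 6 glandular markers (KRT8, KRT18, KRT19, AGR2, SOX9 and AQP5) were called higher in ESMG than in squamous tissue, and their mean level lay between 10.58 and 10.73 in spheroids, 10.19 and 11.01 in ESMG, and 7.20 and 7.99 in squamous tissue. That mean hides a split between spheroids and ESMG. AQP5 was called lower in spheroids (-2.40, adjusted p 9.88e-06 in limma) and KRT19 higher (1.87, adjusted p 6.39e-05). Against squamous tissue 5 of the 6 were called higher in spheroids, while AQP5 differed by -0.10 (adjusted p 0.784). The 3 measured squamous markers (KRT5, CRNN and A2ML1) averaged 10.14 to 10.44 in spheroids, 12.39 to 12.90 in ESMG and 13.01 to 13.13 in squamous tissue, so that genes of squamous epithelium were high in the ESMG samples as well. These markers did not move together: CRNN and A2ML1 were called lower in spheroids than in both tissues, while the basal keratin KRT5 was higher in spheroids than in ESMG by 0.90 (adjusted p 0.00185) and differed from squamous tissue by 0.46 (adjusted p 0.0622). Markers of fibroblasts, smooth muscle and endothelium were all called lower in spheroids than in both tissues. The 6 fibroblast markers averaged 7.53 to 8.41 in spheroids, 11.86 to 12.30 in ESMG and 11.94 to 12.16 in squamous tissue. The 3 smooth muscle markers averaged 7.75 to 8.10 in spheroids, 11.71 to 12.40 in ESMG and 12.49 to 12.77 in squamous tissue. The 3 endothelial markers averaged 6.75 to 7.16 in spheroids, 8.72 to 8.84 in ESMG and 8.75 to 8.96 in squamous tissue. The 6 leukocyte markers averaged 6.85 to 6.90 in spheroids, 7.94 to 9.31 in ESMG and 7.46 to 8.26 in squamous tissue, with PTPRC, CD53 and MPEG1 called lower in spheroids than in both tissues and CD3E called lower than in ESMG. Of the other 2 leukocyte markers, AIF1 was higher in spheroids by 0.82 relative to ESMG (adjusted p 0.0321) and 1.27 relative to squamous tissue (adjusted p 0.00312), and LCP1 differed by 0.01 from ESMG (adjusted p 0.971) and was higher by 1.26 relative to squamous tissue (adjusted p 0.0039). Of the 3 markers of proliferating cells, CDK1 and UBE2C were called higher in spheroids than in both tissues, while TOP2A differed by 0.45 from ESMG and 0.07 from squamous tissue (adjusted p 0.122 and 0.83). Their mean level was 9.69 to 9.75 in spheroids, 8.0 to 8.19 in ESMG and 8.06 to 8.61 in squamous tissue. These marker levels move with every difference between spheroids and tissue given below, and their part in those differences was not tested. In bulk RNA of this kind, fewer cells of a type and less RNA per cell cannot be told apart.

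The comparison of spheroids with ESMG tissue asks how far the replication and repair genes differ between cultured gland cells and gland tissue. The ESMG arrays are not shown to come from the glands that gave the spheroids. Genes that build the replication machinery were higher in spheroids, led by ORC1, MCM4, CDC6, GINS2, POLD1 and POLA2, along with the checkpoint kinase CHEK1, the exonuclease EXO1 and the recombination genes RAD51AP1 and XRCC2. These 10 of 53 members were called higher, against 7.99% of all genes, and 0 were called lower, against 8.91% of all genes. At the adjusted p alone 27 members rose, against 23.9% of all genes, and 1 member, ORC5, fell, against 17.6%; ORC5 was also the 1 lower member at an unadjusted p under 0.05, a side on which 20.6% of all genes lay. The spheroid arrays lay above all ESMG arrays for 27 members, against 30.3% of all genes, and below them for 2, ORC5 and RAD52, against 21.0%. The members' median log2 difference was 0.48, against 0.09 over all genes.

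The 10 called members were spread over the roles. Over all genes 7.99% were called higher, 23.9% rose and 17.6% fell, and no role was tested against these shares. Origin licensing and the helicase held 4 of them, with 7 of 9 members rising, 1 falling and a median of 0.88. The polymerase group held 2, with 10 of 13 rising and a median of 0.77. Recombination and the Fanconi pathway also held 2, with 7 of 17 rising and a median of 0.19. The end joining and base excision group held none, with 1 of 5 rising and a median of 0.06 that ran between -0.12 and 0.18 over the alternatives.

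**Figure D1:**
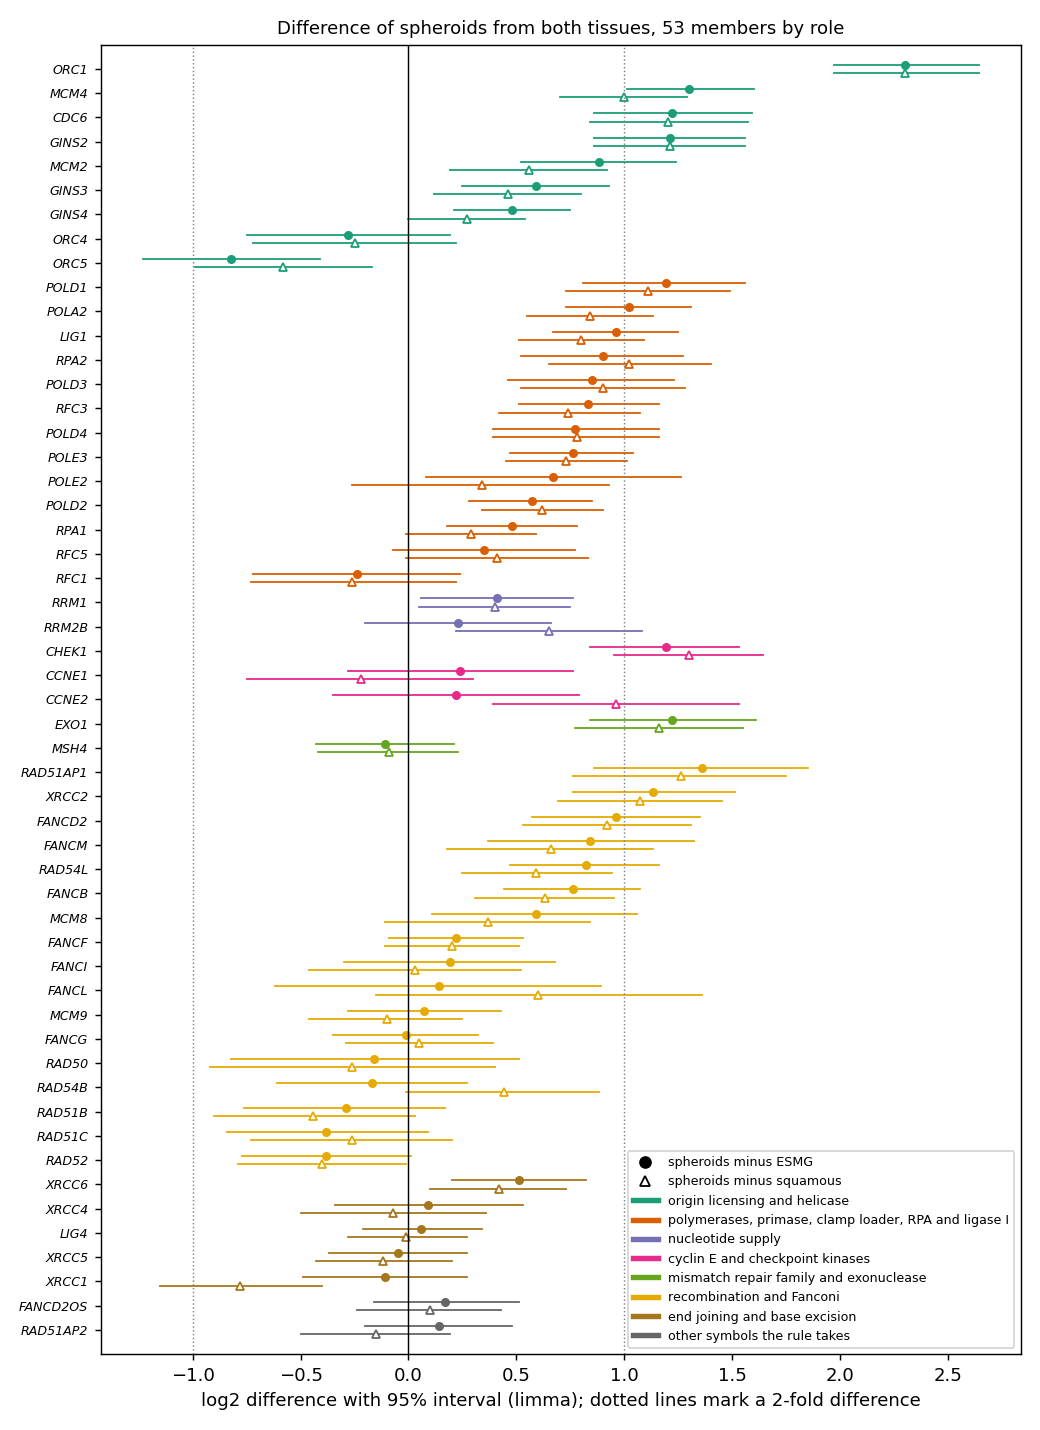
Log2 difference of spheroids from ESMG (filled circles) and from squamous tissue (open triangles) for the 53 members in order of role, with limma's 95% confidence interval; dotted lines mark 2-fold. ORC1 stands alone at 2.30 in both, most helicase and polymerase members lie right of 0, and of the end joining and base excision members XRCC6 lies right of 0 in both comparisons and XRCC1 left of it against squamous tissue.

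ORC1, the largest subunit of the origin recognition complex, showed the largest difference among the members. It stood at 8.77, 8.70 and 8.75 in spheroids from pigs 1, 2 and 3, against 6.67, 6.41 and 6.24 in ESMG and 6.29, 6.65 and 6.37 in squamous tissue of pigs 37, 39 and 40. The 3 spheroid arrays were close together and far above all 6 tissue arrays. Its log2 difference from ESMG was 2.30 (SE 0.15), or 4.94-fold, with an adjusted p of 6.09e-07 in limma. Of the 12217 genes, 77 (0.630%) had a larger log2 difference. Of the other subunits of the complex, ORC4 and ORC5 were measured, and ORC2, ORC3 and ORC6 were not analysed here. ORC4 averaged 8.13 ± 0.40 in spheroids and 8.41 ± 0.23 in ESMG (n = 3 each, SD) and its arrays overlapped. ORC5 stood at 7.46, 7.24 and 7.57 in spheroids, against 8.29, 8.50 and 7.92 in ESMG and 7.72, 8.04 and 8.24 in squamous tissue. Every spheroid array lay below every tissue array, and ORC5 fell by 0.82 (SE 0.19) relative to ESMG, with an adjusted p of 0.00414.

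MCM4 is a subunit of the hexameric MCM helicase. Its levels were 8.49, 8.55 and 8.66 in spheroids, against 7.35, 7.23 and 7.22 in ESMG and 7.46, 7.77 and 7.48 in squamous tissue, with no overlap of spheroids and tissue. The rise over ESMG was 1.30 (SE 0.13), 2.47-fold, with an adjusted p of 1.74e-05. MCM2, of the same hexamer, read 7.53, 7.71 and 7.49 in spheroids, against 6.46, 6.61 and 7.01 in ESMG, a rise of 0.88 (SE 0.17) with an adjusted p of 0.00118 that stayed under 2-fold. Without the ESMG array of pig 40, the highest of the 3, MCM2 rose by 1.04 and was called. MCM3, MCM5, MCM6 and MCM7 were not analysed here.

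CDC6 is the ATPase that works with the origin recognition complex to load the helicase. It read 7.27, 7.08 and 7.36 in spheroids, against 6.27, 5.98 and 5.78 in ESMG and 5.81, 6.06 and 6.22 in squamous tissue. The groups of spheroids and tissue did not overlap, and the rise over ESMG was 1.22 (SE 0.17), 2.34-fold, with an adjusted p of 0.000129. CDT1, its loading partner, was annotated with its symbol repeated and so fell outside the 53; counted as 1 symbol after the data were seen, it read 7.91, 7.99 and 7.57 in spheroids, against 6.75, 6.81 and 7.13 in ESMG, a rise of 0.93 with an adjusted p of 0.0022.

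Of the GINS complex, which joins the helicase when origins fire, GINS2 read 7.89, 8.15 and 7.69 in spheroids, against 6.90, 6.69 and 6.52 in ESMG and 6.64, 6.85 and 6.61 in squamous tissue. All spheroid arrays were above all tissue arrays, and the rise over ESMG was 1.21 (SE 0.16), 2.31-fold, with an adjusted p of 0.000108. GINS3 and GINS4 rose by 0.59 and 0.48, with adjusted p values of 0.00879 and 0.00858. The second GINS4 probe set read 7.15 to 7.41 in spheroids and 6.70 to 6.86 in ESMG, close to the first.

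**Figure D2:**
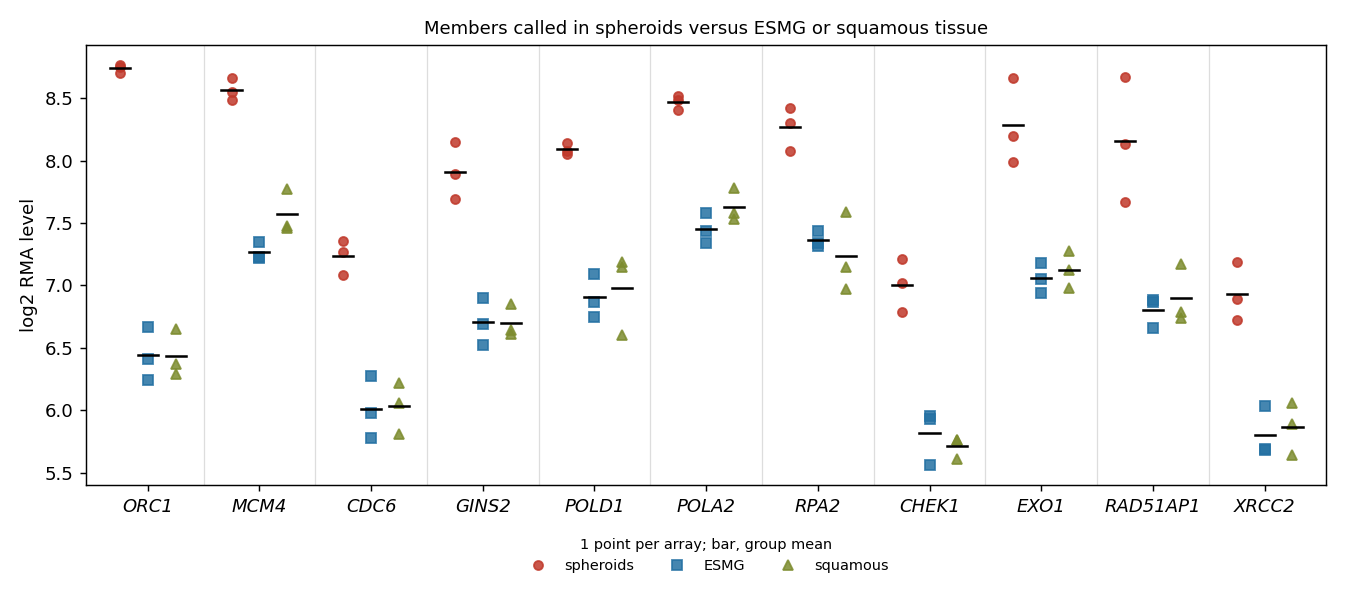
Log2 RMA level of the members called in spheroids against either tissue, 1 point per array and a bar at each group's mean, with spheroids, ESMG and squamous tissue from left to right within each gene. For each gene the 3 spheroid arrays lie above the 6 tissue arrays, with the widest gap for ORC1.

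Among the replicative polymerases, POLD1, the catalytic subunit of DNA polymerase delta, read 8.14, 8.05 and 8.08 in spheroids, against 6.75, 6.87 and 7.09 in ESMG and 6.60, 7.19 and 7.15 in squamous tissue. Spheroids and tissue did not overlap, and POLD1 rose by 1.19 (SE 0.17) over ESMG, 2.27-fold, with an adjusted p of 0.000207. Its accessory subunits POLD2, POLD3 and POLD4 rose by 0.57, 0.85 and 0.77, with adjusted p values between 0.00211 and 0.00415; that of POLD4 came to 0.0528 with cyclic loess. POLA2, the regulatory B subunit of polymerase alpha, read 8.41, 8.49 and 8.52 in spheroids, against 7.58, 7.34 and 7.44 in ESMG and 7.58, 7.78 and 7.53 in squamous tissue. Its spheroid arrays lay well above the rest, and its rise over ESMG of 1.02 (SE 0.13, 2.03-fold, adjusted p 8.8e-05) was just past the 2-fold line. It was under that line without the spheroid array of pig 3 (1.00 after rounding) or the ESMG array of pig 39 (0.96), and with quantile normalization (0.93), cyclic loess (0.81) or array weights (0.95).

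Of polymerase epsilon, the histone-fold subunit POLE3 rose by 0.76 (SE 0.13), with an adjusted p of 0.000595. POLE2 read 6.40, 6.23 and 7.0 in spheroids, against 6.40, 5.96 and 5.26 in ESMG, so that its arrays overlapped. Its difference of 0.67 had an adjusted p of 0.0685 in limma. This came to 0.0146 without the ESMG array of pig 37 and 0.0486 with equal array medians, and reached at most 0.238 over the alternatives. LIG1, which seals Okazaki fragments, read 7.60, 7.49 and 7.67 in spheroids, against 6.57, 6.53 and 6.78 in ESMG and 6.69, 6.82 and 6.85 in squamous tissue. The groups were well apart, and its rise of 0.96 (SE 0.13, adjusted p 0.000127) came to 1.94-fold. LIG1 was called without the spheroid array of pig 2 (1.01) or the ESMG array of pig 40 (1.03). With equal array medians (1.07) or array weights (1.01) it was called too, though the array weights leaned mostly on the spheroid array of pig 1.

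The single-strand binding protein RPA and the clamp loader RFC rose in part. RPA2 read 8.08, 8.30 and 8.42 in spheroids, against 7.44, 7.32 and 7.34 in ESMG and 6.97, 7.15 and 7.59 in squamous tissue, with every spheroid array above every tissue array. RPA2 rose by 0.90 (SE 0.17, adjusted p 0.00128) over ESMG, and RPA1 by 0.48 (SE 0.14, adjusted p 0.0138). With equal array medians RPA2 rose by 1.01 over ESMG and was called. The adjusted p of RPA1 came to 0.0575 without spheroid pig 1, 0.0539 without ESMG pig 37 and 0.112 with cyclic loess. Of the clamp loader, which puts the PCNA ring on DNA, RFC3 read 9.32, 9.06 and 9.57 in spheroids, against 8.49, 8.54 and 8.42 in ESMG, and rose by 0.83 (SE 0.15, adjusted p 0.000763). RFC5 and RFC1 overlapped between the groups, with differences of 0.35 and -0.24 and adjusted p values of 0.173 and 0.415.

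Nucleotide supply was represented by RRM1, the large subunit of ribonucleotide reductase, and RRM2B, its p53-inducible small subunit. RRM1 read 9.76, 9.58 and 9.91 in spheroids, against 9.34, 9.51 and 9.18 in ESMG. The arrays did not overlap, but the difference of 0.41 (SE 0.16) had an adjusted p of 0.0616 in limma. This came to 0.0488 without the squamous array of pig 40, 0.031 with equal array medians and 0.0144 with array weights. Over the alternatives it reached at most 0.193. RRM2B overlapped, with a difference of 0.23 and an adjusted p of 0.384. RRM2, the small subunit of dividing cells, was not analysed here.

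CHEK1, the kinase that acts below ATR when forks stall, read 7.02, 6.79 and 7.21 in spheroids, against 5.93, 5.95 and 5.56 in ESMG and 5.61, 5.76 and 5.76 in squamous tissue. The 3 spheroid arrays were all above the 6 tissue arrays, and the rise over ESMG was 1.19 (SE 0.16), 2.28-fold, with an adjusted p of 0.000109. The E-type cyclins, which drive CDK2 at the start of S phase, gave a different picture. CCNE1 averaged 8.06 ± 0.27 in spheroids and 7.82 ± 0.34 in ESMG, and CCNE2 averaged 7.25 ± 0.25 in spheroids and 7.02 ± 0.56 in ESMG (n = 3 each, SD). The arrays of both genes overlapped, with adjusted p values of 0.465 and 0.539.

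EXO1, an exonuclease of mismatch repair and of the trimming of DNA ends, read 8.20, 7.99 and 8.66 in spheroids, against 7.18, 7.05 and 6.94 in ESMG and 6.98, 7.12 and 7.28 in squamous tissue. Spheroids and tissue did not overlap, and the rise over ESMG was 1.22 (SE 0.18), 2.34-fold, with an adjusted p of 0.000194. The one member of the MSH family, MSH4, acts in meiosis, and it lay near the bottom of the scale with means of 5.43 in spheroids and 5.54 in ESMG. MSH3, a mismatch recognition gene with a repeated symbol outside the 53, differed by -0.15 with an adjusted p of 0.661.

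Among the recombination genes, RAD51AP1, which acts in the pairing of DNA strands, read 8.13, 7.67 and 8.67 in spheroids, against 6.66, 6.88 and 6.87 in ESMG and 6.79, 6.74 and 7.17 in squamous tissue. Its spheroid arrays ranged over a full log2 unit, the widest spread of any member in that group, yet all lay above the tissues. The rise over ESMG was 1.36 (SE 0.23), 2.56-fold, with an adjusted p of 0.000517. XRCC2, which acts in break repair by recombination, read 6.89, 6.72 and 7.19 in spheroids, against 5.68, 5.69 and 6.03 in ESMG and 5.64, 6.06 and 5.89 in squamous tissue. Again no arrays overlapped, and XRCC2 rose by 1.13 (SE 0.17), 2.2-fold, with an adjusted p of 0.000272.

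Just under the 2-fold line, FANCD2, the protein that is tagged with ubiquitin when the Fanconi pathway meets a crosslink, read 7.80, 7.64 and 8.17 in spheroids, against 6.81, 7.03 and 6.89 in ESMG. The arrays were apart, with a rise of 0.96 (SE 0.18, adjusted p 0.00103). This rise passed 2-fold without the spheroid array of pig 2 (1.08) or the ESMG array of pig 39 (1.02), and with equal array medians (1.07). FANCM, a DNA translocase of the pathway, rose by 0.84 (adjusted p 0.00807) and was called without the spheroid array of pig 2 (1.08). RAD54L, a motor protein of recombination, and FANCB, of the Fanconi core complex, rose by 0.82 and 0.76, with adjusted p values of 0.00134 and 0.00139. MCM8, a helicase of recombination rather than of the replicative hexamer, had a difference of 0.59 and an adjusted p of 0.047. That adjusted p was not under 0.05 in 8 of 17 alternatives. It lay between 0.0531 and 0.181 without spheroid pig 1 or 3, ESMG pig 37 or 40, or squamous pig 37 or 39.

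The other 10 recombination and Fanconi genes did not pass the test against ESMG. FANCI, the partner of FANCD2, read 7.09, 6.83 and 7.44 in spheroids, against 6.66, 7.23 and 6.90 in ESMG, with overlapping arrays and a difference of 0.19 (adjusted p 0.541). FANCF, FANCG and FANCL of the core complex differed by 0.22, -0.01 and 0.14, and MCM9, the partner of MCM8, by 0.07. RAD50, RAD51B, RAD51C, RAD52 and RAD54B had negative differences between -0.38 and -0.16. Of these, RAD52, which anneals single strands, read 6.67, 6.34 and 6.77 in spheroids, against 6.78, 7.27 and 6.87 in ESMG and 6.94, 6.82 and 7.22 in squamous tissue. Its spheroid arrays lay just below all tissue arrays, and its difference from ESMG of -0.38 (SE 0.18) had an adjusted p of 0.115.

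Of the end joining genes only XRCC6 passed the test against ESMG. XRCC6, a subunit of the Ku ring that binds broken ends, read 8.29, 8.20 and 8.56 in spheroids, against 7.83, 7.73 and 7.95 in ESMG. The arrays did not overlap, and it rose by 0.51 (SE 0.14) with an adjusted p of 0.0131. This came to 0.0554 without spheroid pig 3, 0.0534 without ESMG pig 39 and 0.0956 with cyclic loess. Its partner in the ring, XRCC5, read 8.24, 8.19 and 8.56 in spheroids, against 8.33, 8.54 and 8.28 in ESMG, with overlap and a difference of -0.05 whose 95% interval ran from -0.37 to 0.27. XRCC4 and LIG4, which form the ligase complex of end joining, differed by 0.09 and 0.06, with intervals from -0.34 to 0.53 and -0.21 to 0.34. FANCD2OS and RAD51AP2, which the symbol rule also takes, differed by 0.17 and 0.14, with adjusted p values of 0.397 and 0.522.

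**Figure D3:**
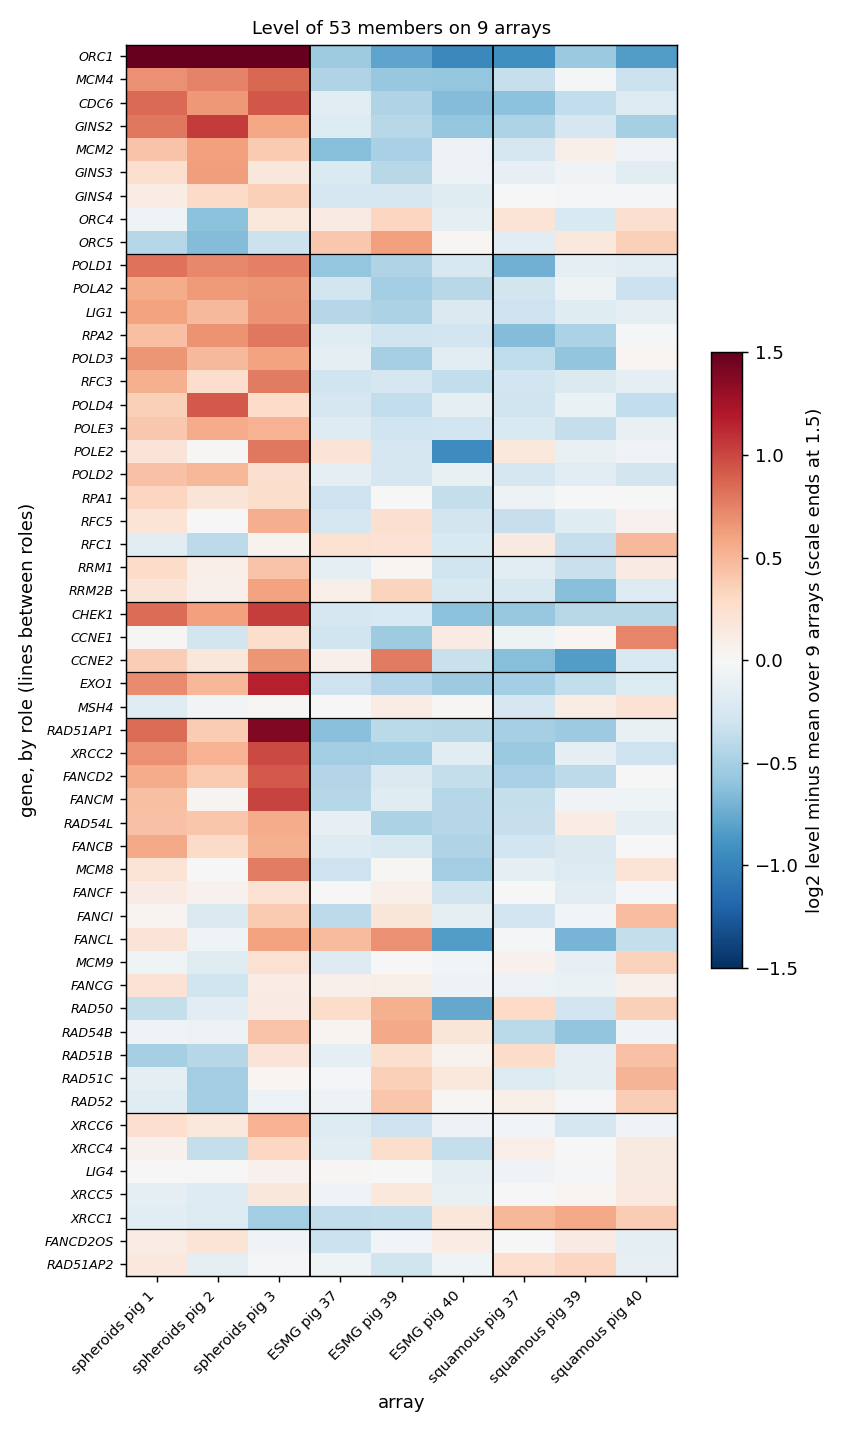
Level of the 53 members on the 9 arrays as log2 level minus the gene's mean over all arrays, with genes in order of role and spheroids, ESMG and squamous tissue from left to right. Most genes of the helicase and polymerase blocks are high on all 3 spheroid arrays, while ORC4, ORC5 and RFC1 have their lowest mean there. In the recombination block the array of pig 3 is the highest of the 3 spheroid arrays for 15 of 17 genes.

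The comparison of spheroids with squamous tissue sets the same 3 spheroid arrays against a second tissue, so the 2 comparisons share these arrays. Again the genes of origin licensing, polymerase delta, the checkpoint, end trimming and strand pairing were higher in spheroids: CDC6, ORC1, GINS2, POLD1, RPA2, CHEK1, EXO1, RAD51AP1 and XRCC2. These 9 of 53 members were called higher, against 8.61% of all genes, and 0 were called lower, against 8.05%. At the adjusted p alone 26 members rose, against 23.6% of all genes, and 2, ORC5 and XRCC1, fell, against 17.4%. At an unadjusted p under 0.05, 3 members were lower (ORC5, RAD52 and XRCC1), against 20.5% of all genes. The spheroid arrays lay above all squamous arrays for 29 members, against 28.6% of all genes, and below them for the same 3 genes, against 21.9%. The members' median log2 difference was 0.44, against 0.03 over all genes.

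ORC1 rose by 2.30 (SE 0.15) over squamous tissue as well, 4.94-fold with an adjusted p of 5.74e-07, and 117 genes (0.958%) had a larger difference. CHEK1 rose by 1.30 (SE 0.16), 2.45-fold, with an adjusted p of 5.57e-05. RAD51AP1 rose by 1.26, GINS2 by 1.21, CDC6 by 1.20, EXO1 by 1.16, POLD1 by 1.11 and XRCC2 by 1.07, with adjusted p values between 0.000104 and 0.000872. RPA2, singled out after its values were seen, was called against squamous tissue and not against ESMG, a contrast that was not tested: it rose by 1.02 (SE 0.17), 2.03-fold, with an adjusted p of 0.000513. MCM4 and POLA2 rose by 1.00 (1.99-fold) and 0.84 (1.79-fold), with adjusted p values of 0.000117 and 0.00035, and were not called.

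Several of these calls lay close to the 2-fold line. Without the spheroid array of pig 3, 5 members were called, and EXO1 (0.97), RAD51AP1 (1.00 after rounding), XRCC2 (0.94) and RPA2 (0.95) were not. Without the squamous array of pig 37, POLD1 (0.92), XRCC2 (0.96) and RPA2 (0.89) were not called, and without that of pig 39 RPA2 was not (0.98). RPA2 was not called with quantile normalization (0.95) or cyclic loess (0.87) either. Without the squamous array of pig 40, 12 members were called, with FANCD2 (1.07), POLD3 (1.07) and CCNE2 (1.13) added. Without the spheroid array of pig 2, 12 were called as well, with FANCD2 (1.03), CCNE2 (1.08) and MCM4 (1.00) added. MCM4 was also called without spheroid pig 1 (1.03) and without squamous pig 39 (1.09). Equal array medians added calls of MCM4 (1.13), CCNE2 (1.09), FANCD2 (1.05) and POLD3 (1.03). Array weights added MCM4 (1.01), and quantile normalization added CCNE2 (1.04).

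Over all genes 23.6% rose and 17.4% fell relative to squamous tissue, and no role was tested against these shares. By role, origin licensing and the helicase had 6 of 9 members rising over squamous tissue, 1 falling and a median of 0.56. The polymerase group had 9 of 13 rising and a median of 0.74. Recombination and the Fanconi pathway had 6 of 17 rising and a median of 0.37. In the end joining and base excision group 1 of 5 rose and 1 fell, with a median of -0.07 that ran between -0.22 and 0.06 over the alternatives. The rises of MCM2, GINS3, FANCM and XRCC6 over squamous tissue, with adjusted p values of 0.0182, 0.0312, 0.0304 and 0.0351, each lost the test when 1 of some arrays was left out. The adjusted p of MCM2 came to 0.0658 without spheroid pig 2 and 0.0794 without squamous pig 37. That of GINS3 lay between 0.055 and 0.125 without spheroid pig 1 or 2 or squamous pig 37 or 40, and that of FANCM between 0.0533 and 0.115 without spheroid pig 1 or 3 or squamous pig 37 or 40. The adjusted p of XRCC6 lay between 0.055 and 0.136 without spheroid pig 1 or 3 or any 1 squamous array. With quantile normalization and cyclic loess the difference of XRCC6 was 0.29 and 0.21 (adjusted p 0.0908 and 0.204), against 0.42, and with cyclic loess the adjusted p of GINS3 was 0.0788.

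Some members ordered the tissues in another way. CCNE2 read 7.22, 7.02 and 7.51 in spheroids, 6.93, 7.63 and 6.52 in ESMG, and 6.21, 6.01 and 6.63 in squamous tissue. Its spheroid arrays all lay above the squamous ones, and it rose by 0.96 (SE 0.26) over squamous tissue with an adjusted p of 0.0112, while spheroids and ESMG overlapped. RRM2B followed the same order at 7.98, 7.86 and 8.39 in spheroids, 7.87, 8.12 and 7.55 in ESMG, and 7.55, 7.15 and 7.59 in squamous tissue. The spheroid arrays were above the squamous arrays, with a rise of 0.65 (SE 0.20) and an adjusted p of 0.02 that came to 0.0838 without the spheroid array of pig 3, 0.0769 without the squamous array of pig 39 and 0.0735 with cyclic loess. CCNE1 had its spheroid mean of 8.06 between those of ESMG (7.82) and squamous tissue (8.28). Its spheroid and squamous arrays overlapped, with an adjusted p of 0.513 between these groups.

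ORC5 fell by 0.58 (SE 0.19) relative to squamous tissue, with an adjusted p of 0.0271. Its adjusted p was 0.0626 without the spheroid array of pig 1, 0.0973 without that of pig 2, 0.064 and 0.105 with squamous pigs 39 and 40 left out in turn, and 0.0925 with equal array medians. The difference kept its sign in each of these. XRCC1, the scaffold protein of base excision and single-strand break repair, read 7.56, 7.51 and 7.19 in spheroids, against 7.35, 7.36 and 7.88 in ESMG and 8.21, 8.28 and 8.10 in squamous tissue. The squamous arrays were the highest 3 of the 9. XRCC1 fell by 0.78 (SE 0.17) in spheroids relative to squamous tissue, with an adjusted p of 0.00348 that reached at most 0.0165 over the alternatives.

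**Figure D4:**
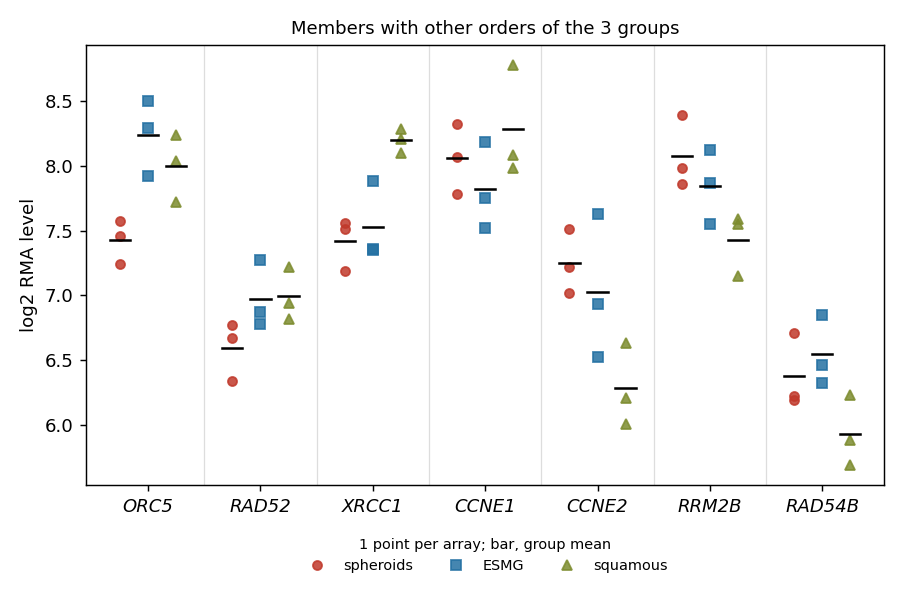
Log2 RMA level of 7 members whose groups follow another order, 1 point per array and a bar at each group's mean, with spheroids, ESMG and squamous tissue from left to right within each gene. ORC5 and RAD52 are lowest in spheroids, XRCC1 is highest in squamous tissue, and CCNE2, RRM2B and RAD54B have their lowest mean in squamous tissue.

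The comparison of ESMG with squamous tissue asks whether glands and lining of the same animals differ in these genes. In limma 0 members were called, against 3.06% of all genes, a low share that the members were not tested against. With 3 arrays per group, the absence of calls does not show that the members differed little. Limma's confidence intervals were wide for some members, from 0.17 to 1.31 for CCNE2, -0.29 to 1.22 for FANCL and -0.93 to 0.26 for POLE2. They were narrower for others, such as -0.31 to 0.25 for POLE3. At the adjusted p alone 0 members rose, against 4.40% of all genes, and 1, XRCC1, fell, against 1.65%. At an unadjusted p under 0.05 there were 4 (CCNE2, MCM4, RAD54B and XRCC1), against 18.6% of all genes. The ESMG arrays lay above all squamous arrays for 1 member, RAD54B, against 9.88% of all genes, and below them for 3, GINS4, MCM4 and XRCC1, against 11.7%. The median difference was -0.07, against -0.06 over all genes.

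XRCC1 fell by 0.67 (SE 0.17) in ESMG relative to squamous tissue, with an adjusted p of 0.0432 in limma. This adjusted p was not under 0.05 in 11 of 20 alternatives, with 0.103 when pig was a fixed block and 0.0689 when it was a random one. It was 0.17 without the ESMG array of pig 37, 0.173 without that of pig 39, 0.115, 0.127 and 0.0862 with squamous pigs 37, 39 and 40 left out in turn, and 0.0644 and 0.0602 with spheroid pigs 1 and 2 left out in turn. The difference itself stayed between -0.72 and -0.58 in these. MCM4 was lower in ESMG by 0.31, with an adjusted p of 0.252, and did not pass. RAD54B, a relative of RAD54L, read 6.32, 6.85 and 6.46 in ESMG, against 5.88, 5.69 and 6.23 in squamous tissue. These arrays were apart, yet the difference of 0.61 (SE 0.20) had an adjusted p of 0.114, and on its second probe set, at 6.0, 6.88 and 6.39 in ESMG and 5.52, 5.80 and 6.37 in squamous tissue, the arrays overlapped. Without the ESMG array of pig 40, 2 members rose: CCNE2 by 0.99 (adjusted p 0.0262) and FANCL by 0.94 (adjusted p 0.0272). FANCL, the ubiquitin ligase of the Fanconi pathway, read 6.20, 6.41 and 4.89 in ESMG, the widest spread of any member in that group.

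Setting the 3 groups side by side, every spheroid array lay above all 6 tissue arrays for 26 members, against 23% of all genes, and below them for 2, against 15.9%. The spheroid mean was the highest of the 3 for 36 members, against 46.8% of all genes, the lowest for 10, against 36.2%, and between the tissues for 7, against 17%.

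**Figure D5:**
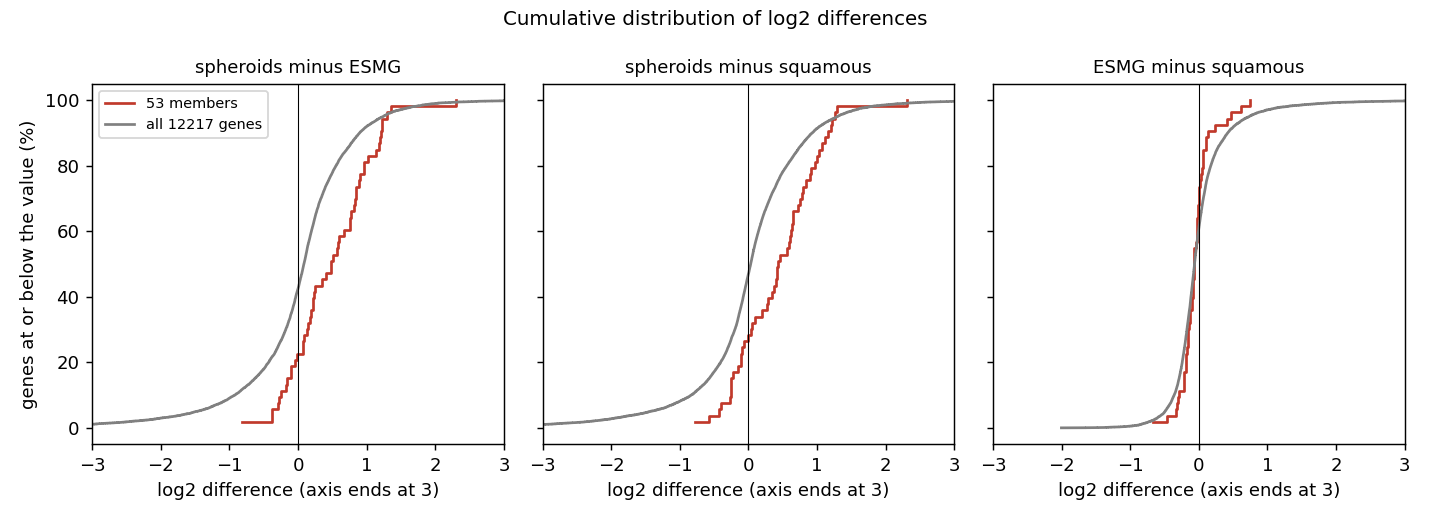
Cumulative share of genes (percent) at or below each log2 difference, for the 53 members and for all 12217 genes, in spheroids minus ESMG, spheroids minus squamous and ESMG minus squamous. In both spheroid panels the members lie right of all genes around the median (0.48 against 0.09 and 0.44 against 0.03), and in the tissue panel both medians are close to 0.

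Within the spheroids, the members ranked the 3 arrays unevenly. The array of pig 2 was the lowest for 38 of 53 members, against 35.0% of all genes, and that of pig 3 the highest for 38, against 35.8%. Of the 17 recombination and Fanconi genes, 15 were lowest on pig 2 and 15 highest on pig 3, while origin licensing genes were lowest on pig 2 for 4 of 9 and highest on pig 3 for 5 of 9. The mean level of the 17 genes was 7.06, 6.86 and 7.38 on pigs 1, 2 and 3. Among the tissues, the ESMG array of pig 40 was the lowest for 26 members, against 32.3% of all genes, and the squamous array of pig 40 the highest for 31, against 34.7%. FANCL, RAD50 and POLE2 were each lowest on the ESMG array of pig 40, at 4.89, 7.48 and 5.26.

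Genes of the same pathways outside the symbol rule were read from lists chosen with earlier results of these data known, and their counts give context only. Of 13 measured genes of the replisome and origin firing (of 24 listed), 5 rose (23.9% of all genes did) and none fell (17.6%) in spheroids relative to ESMG, with a median of 0.41 and no call. The largest were MTBP (0.89) and CHTF18 (0.87), chosen after their values were seen, and TOP2A differed by 0.45 with an adjusted p of 0.122. Of 11 measured genes of nucleotide supply, 4 rose (23.9% of all genes did) and 1 fell (17.6%): CTP synthase CTPS1 rose by 2.24 and the deoxycytidylate deaminase DCTD fell by 1.73, again named after their values were seen. Between spheroids and squamous tissue DCTD differed by 0.13 (adjusted p 0.727 in limma). It was called higher in ESMG than in squamous tissue, by 1.86 (adjusted p 0.000853).

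A further list held 19 measured genes of E2F factors, cyclins, their kinases, inhibitors of those kinases and other G1 to S control. Of these, 9 were called higher (7.99% of all genes were), among them the kinase inhibitor CDKN1A (1.51, adjusted p 7.02e-05 in limma). At the adjusted p 10 rose (23.9%) and 2 fell (17.6%), and the median was 0.78. The kinase CDK4 fell by 0.86 and the inhibitor CDKN2C by 0.80, all 3 genes named after their values were seen. MYBL2, a transcription factor of cell cycle genes, read 10.59, 10.39 and 10.53 in spheroids, against 8.06, 7.81 and 8.10 in ESMG and 8.05, 8.36 and 8.20 in squamous tissue, with no overlap. It rose by 2.51 (SE 0.14) over ESMG with an adjusted p of 1.96e-07. E2F7, a repressor that E2F itself induces, read 8.18, 7.96 and 7.87 in spheroids, against 6.01, 6.05 and 6.20 in ESMG and 6.19, 6.29 and 6.31 in squamous tissue. It was apart on every array, with a rise of 1.91 (SE 0.13) and an adjusted p of 9.44e-07.

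Of 17 measured genes of replication-coupled chromatin 4 were called higher (7.99% of all genes were) and 9 rose (23.9%), with a median of 0.51. UHRF1, which brings DNA methyltransferase to new strands, read 8.06, 7.97 and 8.14 in spheroids, against 6.68, 6.55 and 6.85 in ESMG and 6.86, 7.15 and 6.80 in squamous tissue. Spheroids lay above both tissues, with a rise over ESMG of 1.37 (SE 0.14, adjusted p 1.97e-05). CHAF1A, which lays histones on new strands, read 7.75, 7.74 and 7.60 in spheroids, against 6.55, 6.68 and 6.51 in ESMG and 6.54, 6.65 and 6.91 in squamous tissue. It too was apart on every array and rose by 1.12 (SE 0.14, adjusted p 6.29e-05) over ESMG.

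Of 24 measured genes of mismatch, base and nucleotide excision repair, 2 were called higher, a share near the 7.99% of all genes, 9 rose (23.9% of all genes did) and 1 fell (17.6%), with a median of 0.27. Of 33 measured genes of recombination, end joining and the checkpoint 4 were called higher (7.99% of all genes were), 12 rose (23.9%) and 3 fell (17.6%), with a median of 0.18. DCLRE1B, a nuclease of telomeres and crosslink repair, read 10.10, 10.10 and 9.93 in spheroids, against 7.97, 7.50 and 7.66 in ESMG and 7.84, 8.16 and 7.74 in squamous tissue. All spheroid arrays were far above the tissues, with a rise over ESMG of 2.33 (SE 0.16, adjusted p 9.34e-07). RMI2, of the complex that untangles recombined strands, read 9.22, 9.02 and 9.52 in spheroids, against 7.65, 7.81 and 7.42 in ESMG and 7.42, 7.61 and 7.79 in squamous tissue. Its groups of spheroids and tissue did not overlap, and it rose by 1.62 (SE 0.17, adjusted p 1.93e-05) over ESMG. The 3 that fell were kinases and sensors of damage, named after their values were seen: ATR by 0.76, NBN by 0.68 and PRKDC by 0.56.

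Of 19 measured genes of the p53 response 6 were called higher (7.99% of all genes were) and 1 lower (8.91%), 12 rose (23.9%) and 2 fell (17.6%), and the median was 0.63. BAX, which opens mitochondria in cell death, read 8.27, 8.62 and 8.12 in spheroids, against 6.48, 6.44 and 6.59 in ESMG and 6.62, 6.62 and 6.61 in squamous tissue, a rise of 1.83 over ESMG with an adjusted p of 2.72e-06. SESN1, a stress sensor, stood at 7.24, 7.27 and 7.27 in spheroids, against 9.66, 10.52 and 9.83 in ESMG and 9.19, 9.50 and 9.97 in squamous tissue. Spheroids were far below both tissues, and SESN1 fell by 2.74 (SE 0.24) relative to ESMG, with an adjusted p of 4.5e-06.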

How the data were processed

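The values are log2 levels that the authors made by gene-level RMA with Expression Console, per the labels. Per the submitters' processing notes, Transcriptome Analysis Console 3.0 was also used, in a role they do not state. No Expression Console version and no build is given in the sources used here. RMA brings the distributions of arrays closer together and compresses differences near the floor. A shift between groups remained in these values, with array medians of 6.84 to 6.9 in spheroids and 6.96 to 7.04 in the tissues. No detection call was used, and 0 value columns were left unmatched.

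Of 27558 probe sets, 13157 carried 1 gene symbol, 523 several and 13878 none. Symbols were updated through RefSeq, where 12841 matched and 7 changed. No coordinates are given, since no build is named for the array. One probe set per gene, the one with the highest mean, left 12217 genes, and 55 probe sets gave the 53 members.

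A group-means model over 9 arrays (6 residual degrees of freedom) was fitted in R 4.3.3 with limma 3.58.1 (lmFit, then eBayes) and tested on simulated data. Python 3.11.15, pandas 2.3.3, numpy 2.4.6 and matplotlib 3.10.9 made tables and plots. No array pair was identical. Replicates are biological, 3 per group, per the series' design. Alternatives were the array scaling, a filter on dim genes, the probe set summary, array weights, the variance model, the pig block, the fold minimum and each array left out. The array weights were 8.24, 0.63 and 0.58 for spheroid pigs 1, 2 and 3, so that this alternative leaned mostly on 1 spheroid array. Counting repeated symbols as 1 symbol, which adds CDT1 and MSH3, was chosen after seeing the data.

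ESMG and squamous tissue share pigs by their titles, so pig numbers pair them. Deviations from group means correlated at 0.422, -0.147 and -0.168 for pigs 37, 39 and 40. Between ESMG and squamous arrays of different pigs the correlations ran from -0.307 to 0.373. The consensus correlation with pig as a random block was -0.149.

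Values on every array are given, by rule, for called core replication genes, for the largest called members of each comparison and for the 2 most changed genes of each pathway list with at least 3 calls. The members and lists were chosen with earlier results of these data known.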

Additional observations from a re-analysis of the deposited data

How the results depend on the processing

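No member's call reversed under any alternative. With no fold minimum, 28 members passed in spheroids versus ESMG (27 higher and 1 lower), 28 in spheroids versus squamous (26 higher and 2 lower) and 1 in ESMG versus squamous (1 lower). Cyclic loess called 1 member lower in spheroids versus ESMG, ORC5 at -1.04. With 1 array left out, called members ran from 9 to 13 in spheroids versus ESMG and from 5 to 12 in spheroids versus squamous, the 5 without the spheroid array of pig 3. Members past the adjusted p alone and lower were 3 with array weights in spheroids versus ESMG. In spheroids versus squamous they were 6 with array weights, 1 with equal array medians and 1 to 3 with 1 array left out. In ESMG versus squamous the higher ones were 2 with array weights and 0 to 2 with 1 array left out. The lower ones there were 0 with cyclic loess, 0 with the 6 tissue arrays alone and 0 to 1 with 1 array left out. With pig as a fixed or random replicate block they were 0 as well, where XRCC1 had an adjusted p of 0.103 and 0.0689; the block changed no other call. The cause of these changes was not tested.

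Leaving out the dimmest 1 in 3 genes called 7 and 6 members in spheroids versus ESMG and versus squamous. The called members CDC6, CHEK1 and XRCC2 were themselves among the dim genes left out. Equal array medians moved the median of all genes to 0.20 in spheroids versus ESMG and 0.16 versus squamous, against 0.09 and 0.03. Calls over all genes were then 1244 higher and 935 lower versus ESMG (57.1% higher), against 976 and 1089 (47.3%), and cyclic loess gave 698 and 1320 (34.6%). Versus squamous they were 1370 and 834 (62.2%) with equal medians and 810 and 1137 (41.6%) with cyclic loess, against 1052 and 983 (51.7%). The members' median in these scalings and the other alternatives stayed between 0.28 and 0.59 versus ESMG and between 0.32 and 0.57 versus squamous.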
